A study of Mus musculus with 36 samples.

Results

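The angiogenic and angiopoietin-like factors described here are 8 genes chosen by symbol, namely Vegfa, Vegfb, Vegfc, Vegfd, Angpt1, Angpt2, Angptl2 and Angptl4, out of 55536 genes counted. They were followed in brown pre-adipocytes that lacked endogenous Rxra and re-expressed it from a retrovirus, either as the wild-type cDNA (RxraWT) or with serine 22 replaced by alanine (RxraSA). All cells, RxraWT included, derived from 2 Rxra-/- clones, 48 and 66, each grown from a single cell after CRISPR/Cas9 editing. RNA was collected at confluence in medium with insulin and triiodothyronine (day 0), after exposure to added dexamethasone, isobutylmethylxanthine and indomethacin (day 2), and after further culture with insulin and triiodothyronine alone (day 6). Each combination of clone, form of Rxra and day had 3 libraries, giving 36 libraries, 12 per day and 6 per form of Rxra and day. The labels call the 3 replicates technical while the study describes independent replicates, so the p-values below measure the spread between these libraries, which may be technical in part. Clone 48 was sequenced in library pool 1 and clone 66 in pool 2, so clone and pool cannot be told apart.

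Vascular endothelial growth factors are secreted ligands that act on receptor tyrosine kinases of endothelial cells. Vegfa is the main inducer of blood vessel growth and a known target of hypoxia-inducible factors, Vegfb is linked to fatty acid handling, and Vegfc and Vegfd act mostly on lymphatic vessels. Angiopoietins bind the receptor Tek: Angpt1 is an agonist that stabilises vessels, and Angpt2 can oppose it. The angiopoietin-like proteins resemble angiopoietins but do not bind Tek. Angptl4 inhibits lipoprotein lipase and is a known target of PPARs and of glucocorticoids, and Angptl2 is a secreted factor associated with inflammation. Adipose tissue is densely vascularised, and adipocytes are a source of several of these ligands.

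The stretches of DNA directly before the annotated starts of 4 members are given. No such stretch was available for Angpt1, Angpt2 and Angptl4, and that of Vegfc is not printed. The letters come from RefSeq (GRCm38.p6) and are written 5′ to 3′ on the strand of the gene. Capitals mark matches on either strand to ACGTG or GCGTG, cores of the hypoxia response element, AGGTCA, the half-site of nuclear receptors, TGACG, the half-site of the cAMP response element, and GGGCGG, the GC box. Neighbouring matches can share letters, as ACGTG with TGACG, or AGGTCA with the reverse of GCGTG near the start of the Vegfb window.
Vegfa (chr17:46032378-46032627, minus strand): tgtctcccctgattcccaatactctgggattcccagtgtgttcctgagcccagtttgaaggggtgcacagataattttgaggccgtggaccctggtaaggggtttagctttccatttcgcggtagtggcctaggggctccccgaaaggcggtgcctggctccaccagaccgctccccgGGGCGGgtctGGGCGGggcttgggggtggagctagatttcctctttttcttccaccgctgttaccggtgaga
Vegfb (chr19:6987652-6987901, minus strand): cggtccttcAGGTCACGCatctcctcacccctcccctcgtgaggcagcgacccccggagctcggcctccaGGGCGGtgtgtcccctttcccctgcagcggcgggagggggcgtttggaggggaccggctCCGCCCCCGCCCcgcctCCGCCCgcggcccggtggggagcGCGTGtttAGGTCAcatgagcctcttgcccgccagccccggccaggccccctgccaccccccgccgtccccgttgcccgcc
Vegfd (chrX:164373272-164373377, plus strand): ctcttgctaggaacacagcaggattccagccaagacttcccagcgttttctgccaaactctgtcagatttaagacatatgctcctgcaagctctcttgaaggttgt
Angptl2 (chr2:33215711-33215960, plus strand): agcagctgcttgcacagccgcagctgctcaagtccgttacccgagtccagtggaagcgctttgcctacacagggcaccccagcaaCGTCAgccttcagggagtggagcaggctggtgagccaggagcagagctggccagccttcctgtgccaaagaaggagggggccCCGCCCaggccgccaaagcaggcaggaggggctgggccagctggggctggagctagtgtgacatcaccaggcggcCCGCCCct
The Vegfa window held 2 GC boxes and none of the other 4 motifs. The Vegfb window held 2 matches to GCGTG, 2 to AGGTCA and 4 to GGGCGG. The Angptl2 window held 1 match to TGACG and 2 to GGGCGG. The Vegfd window was limited to 106 bases, because GENCODE places the start 144 bases before that of RefSeq, and held none of the motifs. Of 32851 RefSeq windows of 250 bases, 16.6% held ACGTG, 28.2% GCGTG, 14% AGGTCA, 17.8% TGACG and 32.7% GGGCGG. Over the 106 bases furthest from the start the shares were 6.4%, 11.7%, 6.11%, 5.66% and 11.2%. A match of letters is a description and not a binding site.

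The libraries held 11351078 to 24349263 counts (median 18338726), and mitochondrial genes took 1.11% to 9.09% of them. The cells carried adipocyte RNA after induction: the summed level of 10 adipocyte markers lay between 144 and 245 CPM (counts scaled to a common library size with TMM factors) at day 0, between 3930 and 6760 CPM at day 2 and between 6740 and 10900 CPM at day 6. Ucp1, the thermogenic protein that defines brown adipocytes, had at most 5 counts in any library and was at 0 in 17 of 36. Of the other thermogenic markers in that list, Cidea had at most 27 counts. Ppargc1a had at most 508 counts and was at 13.7, 21.7 and 21.8 CPM on days 0, 2 and 6. Both were among the 9 tested adipocyte markers, all of which were called higher at day 6 than at day 0. Of the markers of other cell types, Cdh5 (endothelial) had at most 1 count, and Sox17 (endothelial), C1qa (macrophage) and Kcnj8 (mural) had none. The summed level of 10 endothelial markers lay between 2.2 and 5.6 CPM, with medians of 2.55, 3.64 and 4.53 on days 0, 2 and 6, and its 3 tested genes moved both ways by day 6: Egfl7 (log2 fold change 1.27) and Pecam1 (0.578) were higher and Vwf (-1.29) was lower. The summed level of 8 mural markers was 109 to 432 CPM, most of it from Pdgfrb (210, 35.5 and 72.7 CPM on the 3 days) and Mcam (8.61, 85.6 and 147 CPM), and that of 8 macrophage markers was 2.83 to 12.7 CPM, most of it Cd68 (6.94, 3.75 and 8.28 CPM). Rxra itself was counted in all libraries, at 92.6 to 712 CPM, and its counts hold both the edited locus and the introduced cDNA. Fewer cells of a type and less RNA per cell cannot be told apart in these bulk libraries.

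Ordered by level per kilobase of exon, the only scale on which different genes are compared here, the members changed rank over differentiation. At day 0, Angptl2 (30.6 ± 8.84 CPM per kb, SD, n = 12) and Angpt1 (mean 31.2, 19.6 to 47.1) were the highest and did not separate, Angpt1 being above Angptl2 in 5 of 12 libraries. Angptl4 (21.5 ± 3.17), Vegfb (16.2 ± 5.87), Vegfa (13.5 ± 4.56) and Vegfd (11.1 ± 2.8) followed, each overlapping its neighbour. At day 2, Angptl4 stood alone at 158 ± 20.8 CPM per kb, above Vegfa (35.7 ± 5.9) in all 12 libraries. At day 6, Vegfa was first at 85 ± 24.5 CPM per kb, above Angpt1 (37.4 ± 5.31) in all 12 libraries, while Vegfb (33.5 ± 14) and Angptl4 (32.8 ± 4.57) did not separate. Angpt2 was the lowest of the 7 counted members on every day, at 1.98, 0.684 and 0.728 CPM per kb, although at day 2 its range overlapped that of Vegfd. For Angpt1 the scale uses all 5205 exon bases, of which 737 are shared with an antisense gene. Read pairs there cannot be assigned to 1 gene, so its level per kb may be too low.

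**Figure D1:**
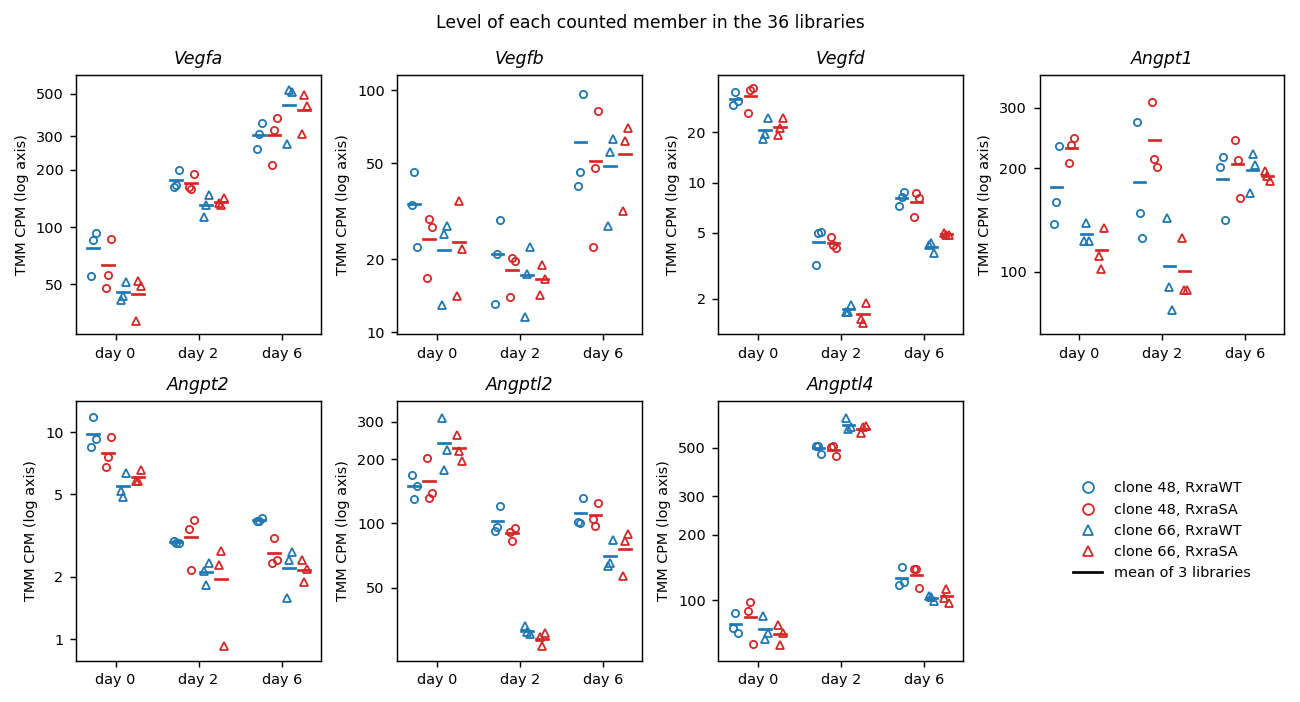
TMM-scaled CPM (log axis, a separate range for each gene) of the 7 counted members in the 36 libraries by day; colour shows RxraWT or RxraSA, symbol shows the clone, and short lines are means of 3 libraries. Vegfa was higher on each later day without overlap, Angptl4 peaked at day 2 and Vegfd was lowest at day 2. With the clones pooled, the 2 colours overlap on every day.

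To ask how the factors changed during differentiation, each pair of days was tested in edgeR by quasi-likelihood, with 1 group per form of Rxra and day and with the clone as a term. Of the 8 members, 7 passed the filter on low counts. From day 0 to day 2, 6 of the 7 were called at an adjusted p under 0.05 (Benjamini-Hochberg over 16723 genes), 2 higher and 4 lower. In that comparison 73.3% of all genes tested were called, 35.8% higher and 37.5% lower, so most genes changed and the count of members is read against that share. From day 0 to day 6 the counts were 3 higher and 3 lower, against backgrounds of 68.3% in all, 32.9% higher and 35.4% lower. From day 2 to day 6 they were 5 higher and 1 lower, against 62%, 31.9% and 30.1%. The 3 comparisons share libraries pairwise. The median absolute log2 fold change was 1.53 from day 0 to day 2 for the 7 members and 0.615 for all genes, and 1.18 against 0.495 from day 0 to day 6.

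Vegfa (ENSMUSG00000023951.17, chr17:46016993-46032369, GRCm38, minus strand) rose at each step. Its level was 32.1 to 93.0 CPM at day 0 (median 51.6, n = 12), 113 to 200 CPM at day 2 (median 154) and 212 to 527 CPM at day 6 (median 338). The 3 days did not overlap in any library. The rise was 2.67-fold by day 2 (log2 fold change 1.42, SE 0.156, adjusted p = 6e-10) and 6.47-fold by day 6 (2.69, SE 0.164, adjusted p = 1.94e-16), with a further 2.42-fold step from day 2 to day 6 (1.28, SE 0.156, adjusted p = 9.69e-09). Among all genes tested, 7.7% changed more between day 0 and day 6.

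Vegfb (ENSMUSG00000024962.13, chr19:6982473-6987651, minus strand) rose late and had the widest spread between replicates at days 0 and 6. It lay between 12.9 and 45.8 CPM at day 0 (median 26.3), between 11.5 and 29.1 CPM at day 2 (median 18.1) and between 22.6 and 97.0 CPM at day 6 (median 51.8), so all pairs of days overlapped. It fell by 0.51 on the log2 scale by day 2 (SE 0.208, adjusted p = 0.0281). That call was lost without replicate 2 of clone 48 (log2 fold change -0.42, adjusted p = 0.116), without replicate 2 of clone 66 (-0.45, adjusted p = 0.0997) and in each clone alone (adjusted p = 0.113 in clone 48 and 0.217 in clone 66), and with same-numbered RxraWT and RxraSA libraries summed (-0.525, adjusted p = 0.0823). By day 6 Vegfb was 2.08-fold above day 0 (1.06, SE 0.207, adjusted p = 3.09e-05) and 2.96-fold above day 2 (1.57, SE 0.21, adjusted p = 6.32e-08). Vegfa and Vegfb share receptors, and the ratio of Vegfa to Vegfb per kb within a library moved from a median of 0.775 (0.559 to 1.54) at day 0 to 3.09 (2.45 to 4.65) at day 2 and 2.78 (1.35 to 3.7) at day 6.

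The 2 lymphatic ligands differed in level. Vegfc (ENSMUSG00000031520.6, chr8:54077606-54187096, plus strand) was at 0 in 34 of 36 libraries and had 1 count in each of the other 2, both of clone 66 at day 0. It was not tested, and a floor of 3 counts per library corresponds to 0.115 to 0.243 CPM, which covers counting error only. Vegfd (ENSMUSG00000031380.10, chrX:164373378-164402650, plus strand) was readily counted at day 0, at 18.3 to 37.1 CPM (median 25.3). It dropped to 1.44 to 5.02 CPM at day 2 (median 2.54) and stood at 3.8 to 8.73 CPM at day 6 (median 5.59). No library of day 2 or day 6 reached the range of day 0. Vegfd was thus 9.47-fold lower at day 2 than at day 0 (log2 fold change -3.24, SE 0.113, adjusted p = 2.65e-23) and 4.42-fold lower at day 6 (-2.14, SE 0.106, adjusted p = 5.07e-19). The recovery from day 2 to day 6 was 2.14-fold (1.1, SE 0.11, adjusted p = 1.25e-10), and within each clone all libraries of day 6 were above those of day 2. Its 25 to 81 counts per library at day 2 make the low point less precise than the values of the other days.

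Of the angiopoietins, the agonist Angpt1 (ENSMUSG00000022309.9, chr15:42424723-42676977, minus strand) was the member without a call against day 0 when both clones were fitted together. It was at 102 to 245 CPM at day 0 (median 138), 77.3 to 312 CPM at day 2 (median 134) and 141 to 242 CPM at day 6 (median 199), with all days overlapping in the pooled libraries. Its log2 fold change was -0.08 by day 2 (SE 0.153, adjusted p = 0.643) and 0.34 by day 6 (SE 0.153, adjusted p = 0.0509), neither of which was called. In clone 66 alone the day 6 value was 0.702 (1.63-fold, adjusted p = 0.000341, edgeR). The libraries of that clone did not overlap, at 169 to 220 CPM at day 6 and 102 to 139 CPM at day 0. In clone 48 alone it was -0.03 (adjusted p = 0.908, edgeR). The day 6 value was called under 7 of 19 alternatives, DESeq2 among them (0.356, adjusted p = 0.0315), and the day 2 value with library size alone (-0.332, adjusted p = 0.0497). From day 2 to day 6 it rose 1.34-fold (0.42, SE 0.154, adjusted p = 0.0189). That call rested on clone 66: the log2 fold change was 0.93 in clone 66 alone (adjusted p = 2.87e-05) and -0.07 in clone 48 alone (adjusted p = 0.792). It was also lost without replicate 2 of clone 66 (0.295, adjusted p = 0.125) or replicate 3 of clone 66 (0.263, adjusted p = 0.187), in a fit with no clone term (0.316, adjusted p = 0.169) and with same-numbered libraries summed (0.401, adjusted p = 0.0898). Of its 5205 exon bases, 737 are shared with the antisense gene Gm17473, and counting took no account of strand. Read pairs over the shared bases cannot be assigned to 1 of the 2 genes, and their number was not measured. Gm17473 itself had a mean of 2.9 CPM at most in any clone and day.

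Angpt2 (ENSMUSG00000031465.6, chr8:18690263-18741562, minus strand), the context-dependent antagonist, fell and stayed low. It was at 4.88 to 11.8 CPM at day 0 (median 6.68), 0.924 to 3.75 CPM at day 2 (median 2.5) and 1.58 to 3.86 CPM at day 6 (median 2.41). Day 0 lay above both later days without overlap. The level was 2.89-fold lower at day 2 (log2 fold change -1.53, SE 0.124, adjusted p = 3.31e-13) and 2.72-fold lower at day 6 (-1.44, SE 0.123, adjusted p = 1.4e-12). Between day 2 and day 6 the difference was 0.09 (95% CI -0.17 to 0.35, adjusted p = 0.578). The gene lies inside Mcph1 on the opposite strand without sharing an exon, and its 18 to 195 counts per library are the fewest of any tested member. The ratio of Angpt1 to Angpt2 per kb had medians of 15.7 (9.57 to 21.9), 38.6 (23.4 to 70.2) and 56.3 (25.9 to 75.9) on days 0, 2 and 6.

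Angptl4 (ENSMUSG00000002289.16, chr17:33773750-33781830, minus strand) had a sharp peak at day 2. It was at 62.0 to 98.0 CPM at day 0 (median 72.8), 460 to 684 CPM at day 2 (median 547) and 97.3 to 142 CPM at day 6 (median 114). Day 2 lay above both other days in all 12 libraries, days 0 and 6 met only at their edges (98.0 and 97.3 CPM), and libraries of one cell line differed by at most 1.12-fold at day 2. The increase by day 2 was 7.37-fold (log2 fold change 2.88, SE 0.0922, adjusted p = 2.46e-24). The level then fell 4.84-fold by day 6 (-2.27, SE 0.0901, adjusted p = 3.6e-21), ending 1.52-fold above day 0 (0.61, SE 0.0864, adjusted p = 1.49e-07). Only 6.62% of all genes tested changed more between day 0 and day 2.

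Angptl2 (ENSMUSG00000004105.8, chr2:33216069-33247717, plus strand) moved the other way. It was at 130 to 313 CPM at day 0 (median 188), 26.7 to 121 CPM at day 2 (median 58.2) and 56.7 to 132 CPM at day 6 (median 93.2). No day 2 library reached the day 0 range, while days 0 and 6 overlapped in the pooled libraries and separated in clone 66. Angptl2 was 3.5-fold lower at day 2 than at day 0 (log2 fold change -1.81, SE 0.228, adjusted p = 1.09e-08) and 2.26-fold lower at day 6 (-1.18, SE 0.218, adjusted p = 1.4e-05). It was higher at day 6 than at day 2 by 0.63 on the log2 scale (SE 0.216, adjusted p = 0.0114), a call lost without replicate 2 of clone 66 (0.542, adjusted p = 0.0552), without replicate 3 of clone 66 (0.48, adjusted p = 0.0902), with no clone term (0.541, adjusted p = 0.0535), with same-numbered libraries summed (0.622, adjusted p = 0.0799) and in clone 48 alone (0.23, adjusted p = 0.156). Angptl2 lies inside Ralgps1 on the opposite strand and shares no exon with it. Within a library, the ratio of Angptl4 to Angptl2 per kb was 0.723 (median, 0.477 to 1.32) at day 0, 22.9 (6.85 to 41.5) at day 2 and 2.39 (1.62 to 3.2) at day 6.

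Within the day 2 range of Angptl2 the clones stood apart. At day 0 the 6 libraries of clone 66 held 178 to 313 CPM and the 6 of clone 48 held 130 to 202 CPM. At day 2 the order was reversed without overlap, with 26.7 to 33.2 CPM in clone 66 and 83.1 to 121 CPM in clone 48. Fitted within each clone, the fall by day 2 was 7.54-fold in clone 66 and 1.61-fold in clone 48. In a model with each clone, form of Rxra and day as its own group, the change in clone 66 differed from that in clone 48 by -2.27 on the log2 scale (SE 0.194, adjusted p = 3.33e-09 over 17589 genes). Angptl2 stayed called for that difference under each alternative tried.

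For the other members, the differences between clones depended on how same-numbered libraries were treated. RxraWT and RxraSA libraries of the same clone, day and number deviated together, and the model above takes them as independent. With each such pair summed, which left 3 sums per clone and day, Angptl2 was the 1 member still called in each of the 3 comparisons of change over time (adjusted p = 8.32e-05, 0.0229 and 0.0335), and the genes called fell to 280, 158 and 247 from 1094, 637 and 1022. Each call of another member for change over time given next was lost in that fit, at adjusted p of 0.0801 to 0.291. With the libraries taken singly, from day 0 to day 2, 3 of 7 members differed (background 6.22%): besides Angptl2, Vegfd fell further in clone 66 (difference -0.76, SE 0.177, adjusted p = 0.00647) and Angptl4 rose further (0.51, SE 0.133, adjusted p = 0.0165). From day 0 to day 6, 2 of 7 differed (background 3.62%). Vegfa rose 9.65-fold in clone 66, from 32.1 to 52.0 CPM to 272 to 527 CPM, and 4.35-fold in clone 48, from 48.1 to 93.0 CPM to 212 to 373 CPM, a log2 difference of 1.15 (SE 0.246, adjusted p = 0.00448). Angptl2 differed by -1.16 (SE 0.191, adjusted p = 0.000248).

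From day 2 to day 6, 5 of 7 members differed between clones (background 5.81%): Vegfa by 0.88 (adjusted p = 0.0259), Vegfd by 0.59 (adjusted p = 0.0498), Angpt1 by 1.04 (adjusted p = 0.00637), Angptl2 by 1.1 (adjusted p = 0.000342) and Angptl4 by -0.63 (adjusted p = 0.00261). The Vegfd value sits at the threshold, and 10 of its 11 alternatives fell on the other side of it, with differences of 0.497 to 0.697. Leaving out single replicate numbers ended several of the other calls. Without replicate 2 of clone 48 or of clone 66, adjusted p for Vegfa was 0.0602 or 0.0733 from day 0 to day 6 and 0.157 or 0.251 from day 2 to day 6, and without replicate 3 of clone 66 it was 0.126 for the latter. Without replicate 2 of either clone, adjusted p for Vegfd from day 0 to day 2 was 0.0525 or 0.0512. For Angptl4 from day 0 to day 2 it was 0.0675 or 0.0875 without replicate 1 or 2 of clone 48, and 0.132 or 0.108 without replicate 2 or 3 of clone 66. For Angpt1 from day 2 to day 6 it was 0.127 or 0.0919 without replicate 2 or 3 of clone 66.

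**Figure D2:**
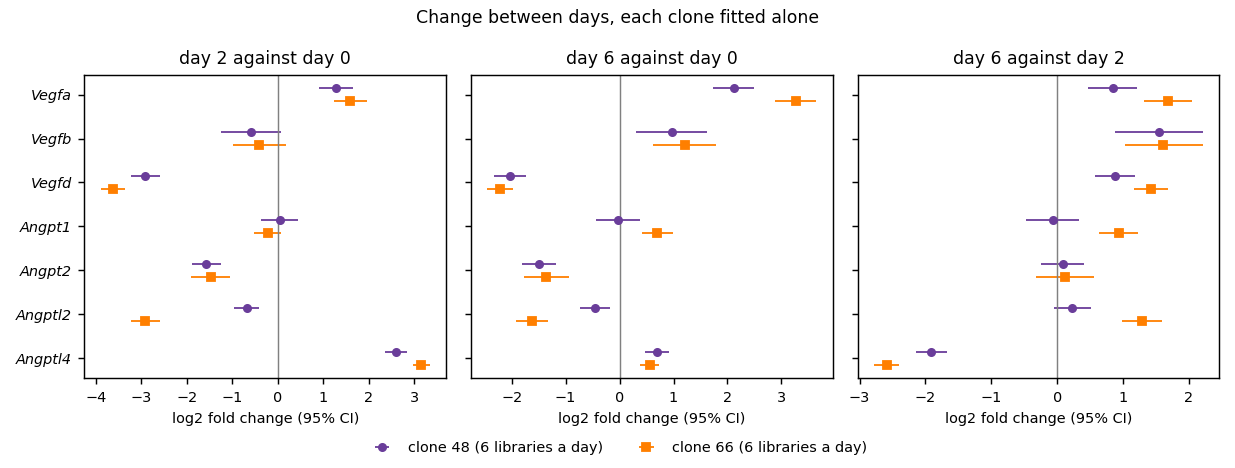
Log2 fold changes of the 7 counted members between days with 95% confidence intervals, fitted in clone 48 (circles) and in clone 66 (squares) alone, 6 libraries per day and clone. The clones are furthest apart for Angptl2 from day 0 to day 2 (-0.689 in clone 48, -2.91 in clone 66), and the intervals of Vegfb and Angpt2 overlap in all 3 comparisons.

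Clone 66 was compared with clone 48 on each day. At day 0, 5 of 7 members were called (background 22.7%): Vegfa, Vegfd, Angpt1 and Angpt2 were lower in clone 66, by 1.58-fold, 1.54-fold, 1.66-fold and 1.55-fold, and Angptl2 was 1.5-fold higher. At day 2, again 5 of 7 were called (background 28.6%), with Vegfd 2.6-fold, Angpt1 2.05-fold, Angpt2 1.5-fold and Angptl2 3.21-fold lower in clone 66 and Angptl4 1.26-fold higher. At day 6, 5 of 7 were called (background 25%), with Vegfd 1.72-fold, Angpt2 1.41-fold, Angptl2 1.49-fold and Angptl4 1.23-fold lower and Vegfa 1.41-fold higher. Vegfd was the member lower in clone 66 on all 3 days without overlap, at 18.3 to 24.4 against 26.2 to 37.1 CPM, 1.44 to 1.9 against 3.19 to 5.02 CPM and 3.8 to 4.97 against 6.22 to 8.73 CPM. Vegfb was not called between clones on any day, with 95% intervals of -0.98 to 0.29 at day 0, -0.85 to 0.43 at day 2 and -0.72 to 0.53 at day 6. With same-numbered libraries summed, 4, 4 and 2 members were called on the 3 days, and the genes called fell to 2075, 3000 and 2400 from 3997, 5027 and 4394. The calls lost were Vegfa at day 0 (adjusted p = 0.0743), Angptl4 at day 2 (0.0658), and Vegfa (0.178), Angpt2 (0.0506) and Angptl4 (0.115) at day 6. The day 6 calls of Vegfa, Angpt2 and Angptl4 depended on single replicates. For Vegfa, adjusted p was 0.189 or 0.144 without replicate 1 or 2 of clone 48, 0.308 or 0.195 without replicate 2 or 3 of clone 66, and 0.0619 with library size alone. For Angpt2 it was 0.0839, 0.119 or 0.0653 without replicate 1, 2 or 3 of clone 48 and 0.109 or 0.103 without replicate 1 or 2 of clone 66. For Angptl4 it was 0.0733 or 0.0588 without replicate 1 or 2 of clone 48 and 0.103 without replicate 3 of clone 66. At day 2 the Angpt2 call was lost without replicate 1 or 3 of clone 48 (adjusted p = 0.0601 or 0.0899) or replicate 3 of clone 66 (0.0611), and at day 0 the Vegfa call without replicate 3 of clone 48 (0.0847). With one clone in each library pool, these are differences between lines and pools together.

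The question of the study was whether serine 22 of RXRα matters, so RxraSA was compared with RxraWT on each day. None of the 7 members was called on any day, against a background of 0% (0 of 16723 genes, edgeR adjusted p = 1, with 139, 162 and 125 genes at an unadjusted p under 0.05 on days 0, 2 and 6). DESeq2 also called 0 genes, with 116, 130 and 101 genes at an unadjusted p under 0.05. Member log2 fold changes lay between -0.20 (Vegfb) and 0.12 (Angpt1) at day 0, between -0.18 (Angptl2) and 0.22 (Angpt1) at day 2 and between -0.29 (Angpt2) and 0.09 (Vegfd) at day 6. Over all members and days the bounds of the 95% intervals ran from -0.79 to 0.66, a change of at most 1.73-fold. For Angptl4 they were narrowest, from -0.24 to 0.26 at day 0, -0.29 to 0.20 at day 2 and -0.21 to 0.29 at day 6.

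With the clones pooled, the values of the 2 forms overlapped for each member on each day. Such overlap says little about the forms, because each form held both clones, and the clones themselves could lie apart, as for Vegfd. Within a clone (3 against 3 libraries), they did not overlap in 2 of 42 comparisons, both at day 6: Angpt2 in clone 48 was 3.73 to 3.86 CPM with RxraWT and 2.33 to 3.07 CPM with RxraSA, and Vegfd in clone 66 was 3.8 to 4.34 CPM with RxraWT and 4.82 to 4.97 CPM with RxraSA. Of all genes tested, 8.12%, 3.41% and 4.95% did not overlap between the forms in clone 48 on days 0, 2 and 6, and 2.79%, 4.04% and 3.63% in clone 66. At day 2, Angptl4 was at 469 to 684 CPM (median 560) in the 6 RxraWT libraries and at 460 to 626 CPM (median 545) in the 6 RxraSA libraries. At day 6, Vegfa was at 257 to 527 CPM (median 328) with RxraWT and at 212 to 495 CPM (median 349) with RxraSA. With both clones in 1 fit and no pairing, Angpt2 had the smallest p of any member, 0.119 unadjusted at day 6 (adjusted p = 1, edgeR). It was at 1.58 to 3.86 CPM (median 3.18) with RxraWT and 1.88 to 3.07 CPM (median 2.37) with RxraSA. RxraSA was lower in 5 of 6 same-numbered pairs. In clone 48 alone its log2 fold change at day 6 was -0.533 (95% CI -0.997 to -0.0689, unadjusted p = 0.0269, edgeR). In clone 66 alone it was -0.0299 (95% CI -0.646 to 0.586). Angpt2 was not called in either clone, and 175 of 16563 genes had an unadjusted p under 0.05 in clone 48 at day 6.

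RxraWT and RxraSA libraries that shared clone, day and number deviated together, so the forms were also compared within same-numbered pairs. With this replicate block within each day, Vegfa at day 0 differed by -0.18 (95% CI -0.35 to -0.01, unadjusted p = 0.0379, adjusted p = 0.807, edgeR) and was lower with RxraSA in 5 of 6 pairs. Angptl2 at day 2 differed by -0.16 (95% CI -0.315 to -0.00485, unadjusted p = 0.0438, adjusted p = 1) and was lower in 5 of 6 pairs. No member was called, and 1 gene of all tested was called at day 2. In this paired fit 704, 692 and 477 of 16723 genes had an unadjusted p under 0.05 (edgeR) on days 0, 2 and 6. The change over time was compared between the forms as well: 0 of 7 members and 0% of all genes were called in the 3 genotype-by-time comparisons, with 144, 128 and 153 genes at an unadjusted p under 0.05 (125, 109 and 133 with DESeq2, which called 0). Member interaction estimates lay within 0.279 on the log2 scale of 0. Their 95% intervals were wider, with bounds from -1.02 to 0.904 (day 2 against day 0), -0.801 to 0.988 (day 6 against day 0) and -0.82 to 1.08 (day 6 against day 2). The widest bound is a 2.11-fold difference.

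**Figure D3:**
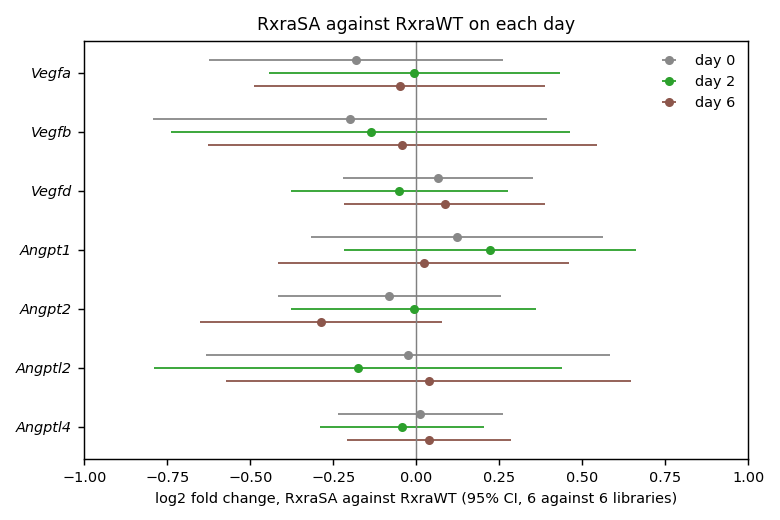
Log2 fold changes of the 7 counted members, RxraSA against RxraWT, with 95% confidence intervals on days 0, 2 and 6 (6 against 6 libraries each). All 21 intervals include 0, and the outermost bound is -0.792 (Vegfb at day 0).

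The spread between replicates differed among the members and was in part shared by the 2 forms, though not for every member and day. The SD of log2 CPM within a cell line at day 6 was 0.732 for Vegfb, 0.4 for Vegfa, 0.24 for Angpt1 and 0.126 for Angptl4. At day 6 Vegfb was at 22.6 to 40.1 CPM in the 4 libraries of replicate 1, 45.9 to 61.7 CPM in those of replicate 2 and 62.9 to 97.0 CPM in those of replicate 3, with no overlap between the numbers. The SD of the RxraSA to RxraWT difference within pairs corresponded to 0.226 per library for Vegfb. Mitochondrial genes took 1.96% to 2.48%, 2.18% to 6.78% and 4.15% to 9.09% of the counts in the same sets of 4 libraries, and their part in the Vegfb values was not tested. Vegfa was also lowest in replicate 1 at day 6, with 212 to 309 CPM against 307 to 527 CPM in replicate 2 and 350 to 510 CPM in replicate 3. For Angpt1 at day 2 it was replicate 1 that was high: in clone 48, 312 CPM with RxraSA and 273 CPM with RxraWT, against 125 to 213 CPM in the other 4 libraries. Pairing did not narrow the spread of Angpt2 at days 2 and 6 or of Vegfd at day 2. The SD within a line was 0.473, 0.244 and 0.227, and per library after pairing 0.535, 0.293 and 0.249.

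**Figure D4:**
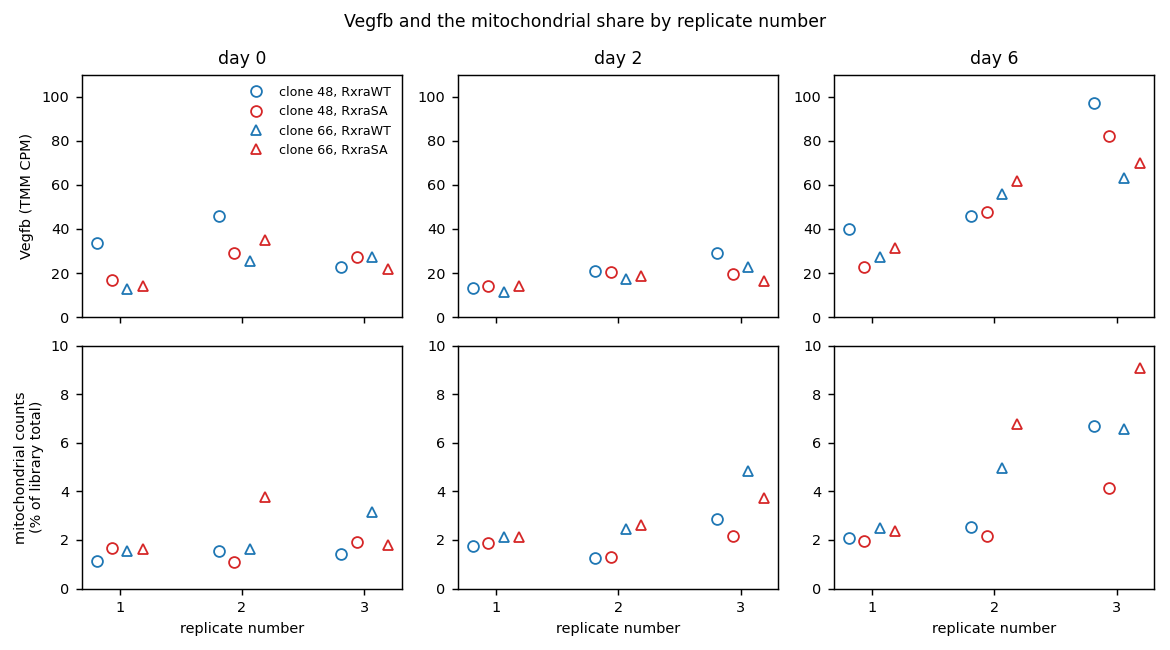
Vegfb level (TMM CPM, upper row) and percent of library counts in mitochondrial genes (lower row) for each library by replicate number on days 0, 2 and 6; colour shows the form of Rxra and symbol the clone. At day 6 the 4 libraries of replicate 1 (22.6 to 40.1 CPM) lie below those of replicate 2 (45.9 to 61.7 CPM) and replicate 3 (62.9 to 97.0 CPM).

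The genes whose log2 CPM most resembled each member over the 36 libraries (Pearson r, given as a description over libraries that share days, clones and replicate numbers) differed from member to member. For Vegfa they were Dbt (r = 0.974), Hcar1 (0.971) and Acaa1a (0.97), of which Dbt encodes a subunit of the branched-chain ketoacid dehydrogenase, Hcar1 a lactate receptor and Acaa1a a peroxisomal thiolase. For Angptl4 they were Pole4 (0.986), Map7d2 (0.982) and Tsc22d3 (0.98), the last a well-known glucocorticoid-induced gene. For Vegfd they were Lrrc17 (0.985), Timp3 (0.98), an inhibitor of metalloproteinases that also blocks VEGF binding to its receptor, and the mitotic kinesin Kif23 (0.979). For Vegfb they were Dab2ip (0.952), Bahd1 (0.945) and Med16 (0.944), a Mediator subunit. For Angptl2 they were Pimreg (0.938), Map2k6 (0.918) and Aff3 (0.909), for Angpt2 Ildr2 (0.922), Sorcs2 (0.919) and Casp2 (0.915), and for Angpt1 the hyaluronan synthase gene Has2 (0.785), Pnrc2 (0.776) and Fam76b (0.768).

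Among related genes of the same families, 4 of 6 were tested. By day 6, 2 were higher (Angptl6 and Angptl8) and 2 lower (Angpt4 and Pgf) than at day 0, with a median log2 fold change of 1.30 (all genes -0.03) that lies between these pairs. Angptl6 had a mean of 2.03 ± 0.455 CPM at day 0 (SD, n = 12), 19.4 ± 9.2 at day 2 and 40.5 ± 17.3 at day 6, and was called in all 3 comparisons. Angptl8, which takes part in the inhibition of lipoprotein lipase, was at 0.152 CPM at day 0, 0.0932 at day 2 and 11.0 ± 7.5 at day 6, where it was called (adjusted p = 3.36e-19 against day 0). Angpt4, a further Tek ligand, was 16.2 ± 8.69, 1.71 ± 1.05 and 4.27 ± 0.919 CPM on the 3 days. Angptl7 was not tested, at 0.355, 0.366 and 0.319 CPM.

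The endothelial receptors of these ligands were at or near 0. Kdr and Flt4 had at most 1 count in any library, Tek at most 7, Tie1 at most 8 and Flt1 at most 9, and none of the 5 was tested. The 4 tested members were co-receptors and integrins. Nrp2, a co-receptor favoured by lymphatic ligands, fell from 323 ± 97.0 CPM at day 0 to 122 ± 32.1 at day 2 and 95.2 ± 26.6 at day 6 (log2 fold change by day 6 -1.74, SE 0.166, adjusted p = 2.29e-11). Nrp1 fell to 246 ± 65.3 CPM at day 2 from 423 ± 117 (-0.77, adjusted p = 3.32e-08) and was 391 ± 56.3 at day 6 (adjusted p = 0.52 against day 0). Itgb1 was lower at day 6 (log2 fold change -0.78, adjusted p = 5.34e-14) and so was Itga5 (-0.98, adjusted p = 0.00372). In all, 3 of 4 were lower and none higher at day 2 and at day 6, where 37.5% and 35.4% of all genes were lower, with median log2 fold changes of -0.74 and -0.88 (all genes -0.02 and -0.03). Of the genes that process Vegfc and Vegfd, 4 of 6 were tested and 3 were lower at day 6 than at day 0, namely the proprotein convertase Pcsk7 (47.3 to 34.5 CPM, log2 fold change -0.46, adjusted p = 1.82e-07), the protease Adamts14 (17.4 to 1.7 CPM, log2 fold change -3.38, adjusted p = 1.34e-16) and Ccbe1, a cofactor of Vegfc processing (3.82 to 0.445 CPM, -3.16, adjusted p = 2.84e-10), while Furin was 24.7 ± 16.8 and 29.1 ± 21 CPM (adjusted p = 0.562).

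In the lipoprotein lipase system, which Angptl4 restrains, 6 of 10 genes were tested and all 6 were higher at day 6 than at day 0, against 32.9% of all genes (median log2 fold change 1.94, all genes -0.03). Lpl was 653 ± 255 CPM at day 0, 3220 ± 601 at day 2 and 4070 ± 1040 at day 6 (2.67, SE 0.178, adjusted p = 2.18e-15 by day 6). Between day 2 and day 6, when Angptl4 fell, the log2 fold change of Lpl was 0.31 (adjusted p = 0.103). Apoc1 was 0.172 CPM at day 0 and 190 ± 46.8 at day 6, and Apoc3 was listed at 0 at day 0 and at 9.69 ± 3.64 CPM at day 6. Sel1l, which takes part in lipase maturation, was 99.8 ± 21.8, 169 ± 43.1 and 157 ± 46.5 CPM.

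PPAR target genes, a group to which Angptl4 belongs but which was listed without it, rose in 17 of 19 tested cases by day 2 (none lower, Cpt1b and Plin4 not called, median log2 fold change 3.84, 35.8% of all genes higher) and in 15 of 19 by day 6 (2 lower, median 3.12, 32.9% of all genes higher). From day 2 to day 6, 6 rose and 10 fell (median -0.53). Acsl1 had a time course with a day 2 maximum, 40.4 ± 7.38, 4800 ± 424 and 1780 ± 291 CPM, whereas Fabp4 (44.2, 1890 and 3440 CPM) and Adipoq (1.81, 484 and 2310 CPM) rose further after day 2. Cidec was at 2.05, 494 and 605 CPM (adjusted p = 0.185 from day 2 to day 6). The 2 lower genes at day 6, Gk (-0.40, adjusted p = 0.00168) and Plin4 (-0.43, adjusted p = 0.000749), were named after their values were seen.

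Hypoxia-inducible factors and their targets were listed without Vegfa. By day 2, 9 of 19 tested genes were higher and 6 lower (median log2 fold change 0.24), shares near those of all genes (35.8% and 37.5%). By day 6, 15 were higher and 1 lower (median 2.43, all genes 32.9% and 35.4%). From day 2 to day 6, 16 were higher and 1 lower (median 2.31, all genes 31.9% and 30.1%). The glycolytic genes Ldha (331, 406 and 2490 CPM) and Pgk1 (75.9, 109 and 1010 CPM) had larger steps after day 2 (log2 fold changes 2.66 and 3.21, against 0.28 and 0.52 before), and Ero1l (44.1, 706 and 1920 CPM) and Bnip3 (21.4, 160 and 622 CPM) rose at both steps, as Vegfa did. The lower gene in both was Hif1a itself (-0.21 against day 0, adjusted p = 0.0258, and -0.21 against day 2, adjusted p = 0.0263), named after its value was seen.

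Of 19 tested secreted regulators of angiogenesis outside the 3 families, 18 were lower and none higher at day 2, Hgf not being called (median log2 fold change -2.42, 37.5% of all genes lower), and at day 6, 14 were lower and 4 higher (median -2.48, 35.4% of all genes lower and 32.9% higher). From day 2 to day 6, 13 of the 19 were higher and 3 lower (median 1.2, all genes 31.9% and 30.1%). This list includes angiogenic and antiangiogenic factors. The inhibitors Thbs1 (809 ± 281, 9.57 ± 5.69 and 81.3 ± 60.7 CPM) and Thbs2 (547 ± 148, 44.1 ± 22.1 and 76.3 ± 27.5 CPM) fell from day 0, as did the antiangiogenic serpin Serpinf1 (105, 28.9 and 38.9 CPM) and the chemokine Cxcl12 (385, 101 and 66.4 CPM). After day 2, Thbs1, Thbs2 and Serpinf1 rose (log2 fold changes 2.84, 0.797 and 0.64) and Cxcl12 fell further (-0.528). The 4 genes above day 0 at day 6, named after their values were seen, were Col18a1 (3.21), the source of endostatin, Fgf1 (2.21), Apln (2.06) and Fgf2 (1.79), with log2 fold changes in parentheses. Markers of pre-adipocytes moved beside these genes, from a summed 419 to 1110 CPM at day 0 to 43.5 to 138 CPM at day 2 and 177 to 518 CPM at day 6, and their part in the change was not tested. Most of that sum and its rise after day 2 was Col3a1 (607, 49.6 and 318 CPM), whereas Pdgfra (92.0, 25.8 and 19.4 CPM) and Ly6a (52.6, 3.67 and 1.74 CPM) fell further from day 2 to day 6 (adjusted p = 0.0337 and 3.7e-06), and Dlk1 and Dpp4 had at most 1 count. For adipocyte, pre-adipocyte, endothelial, mural and macrophage markers respectively, 9 of 9, 0 of 5, 2 of 3, 1 of 4 and 1 of 2 tested genes were higher at day 6, with 0, 4, 1, 1 and 1 lower.

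**Figure D5:**
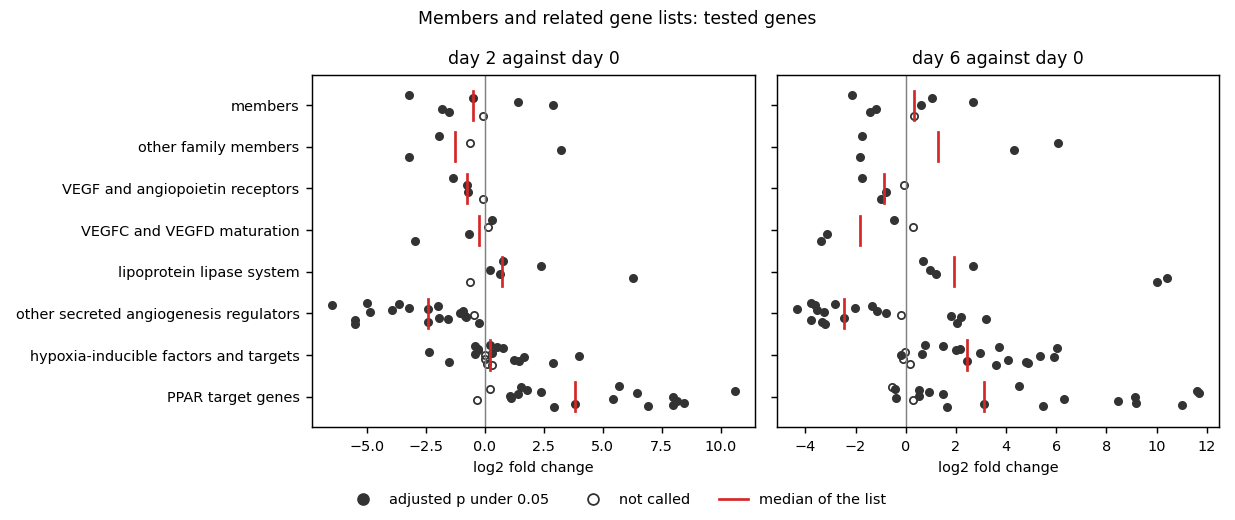
Log2 fold changes of the tested genes of the members and of 7 related lists, day 2 and day 6 against day 0; filled points were called at an adjusted p under 0.05, open points were not, and red lines are medians. The secreted regulators lie mostly below 0 at both days (medians -2.42 and -2.48), and the hypoxia list has its median at 0.237 at day 2 and 2.43 at day 6.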

How the data were processed

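Stranded total RNA libraries making up 36 samples were sequenced as paired ends. As deposited by the authors, the values are raw counts of read pairs per gene, aligned with STAR 2.7.0d to GRCm38 and counted over exons with featureCounts 1.6.2 and GENCODE M21, with no strand setting and no normalisation. Genes that overlap on opposite strands therefore cannot be told apart where exons are shared. Symbols came from the annotation identifiers, and 2 older symbols were matched through RefSeq synonyms.

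Counts were filtered with filterByExpr, scaled with TMM (levels are CPM) and tested with edgeR 4.0.16 in R 4.3.3 (glmQLFit in its legacy form, glmQLFTest) over 16723 genes, with 1 coefficient for each form of Rxra and day and the clone as a term, after the design of the study. Differences between clones used 1 coefficient per clone, form and day (17589 genes). Adjusted p is Benjamini-Hochberg over all genes tested, at a threshold of 0.05. Intervals are 95% intervals. Scripts were tested on simulated data. Libraries of the same group differed by more than sampling noise in all 36 pairs (chi-square per degree of freedom 12.02 or more), so none was taken as 1 library deposited again. That comparison does not show that the replicates are independent.

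The members and gene lists were chosen with earlier results of these data known, and 1 listed gene is not reported here. The 8 members were always named, and of each list the 4 genes with the highest level per kb. Genes most like a member were the 3 with the highest Pearson r of log2 CPM among protein-coding genes whose mean log2 CPM reached 3. The 18 same-numbered RxraWT and RxraSA pairs of a clone and day deviated together (correlation of deviations 0.176 to 0.93, mean 0.71, over 9381 genes), so the numbers pair the samples. A replicate block was fitted as an alternative, and 1 gene was called for RxraSA against RxraWT at day 2 with it within each day. Other alternatives were RLE and library-size scaling, other filters, DESeq2 1.42.0, the newer edgeR test, no clone term, single clones, the compared days alone, and leaving out each replicate number of a clone or the shallowest library. Summing same-numbered RxraWT and RxraSA libraries (18 sums over the same genes) was chosen after seeing the data. Tables and figures were made with Python 3.11.15, pandas 2.3.3, numpy 2.4.6, scipy 1.17.1 and matplotlib 3.10.9.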

Additional observations from a re-analysis of the deposited data

Results flagged for a closer look

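In groups of 4 to 10 libraries, a single library stood far from the others in 2 of 42 groups examined, and chance alone gives this in about 1 group in 20. Both were RxraWT libraries of clone 48 and both concerned Angpt1, at 232 CPM in replicate 3 of day 0 and at 273 CPM in replicate 1 of day 2. These groups were of 1 form and day and held both clones, so a difference between clones can set a library apart. Angpt1 was 1.66-fold lower in clone 66 at day 0 and 2.05-fold lower at day 2. The RxraSA libraries of the same clone, day and number were at 245 and 312 CPM.

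The change between days differed between clone 66 and clone 48 by a test of the difference itself in 10 of 21 comparisons of a member. Of all genes tested, 6.22% were called from day 0 to day 2, 3.62% from day 0 to day 6 and 5.81% from day 2 to day 6. From day 0 to day 2, the log2 difference of clone 66 minus clone 48 was -0.759 for Vegfd, -2.27 for Angptl2 and 0.509 for Angptl4. From day 0 to day 6 it was 1.15 for Vegfa and -1.16 for Angptl2. From day 2 to day 6 it was 0.883 for Vegfa, 0.592 for Vegfd, 1.04 for Angpt1, 1.1 for Angptl2 and -0.633 for Angptl4. With same-numbered RxraWT and RxraSA libraries summed, Angptl2 stayed called in each comparison and the calls of the other members were lost. Clone and library pool cannot be told apart.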

How the results depend on the processing

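Of the values of members between days, 372 kept their side of the threshold and their direction, 14 lost the call, 8 gained it and 5 changed sign. For RxraSA against RxraWT, 337 kept both and 41 changed sign, none of them called. For clone by time the numbers were 91 kept, 29 lost and 1 gained, and for clone 66 against clone 48 they were 163, 22 and 2. The cause was not tested. Depth limits Vegfc, and counts were fewest for Angpt2 and Vegfd at day 2. Scaling by library size alone shifted the median over all genes by -0.259 in log2 (day 2 against day 0) and -0.188 (day 6 against day 0), and the share of calls that were higher went from 48.9% to 33.6% and from 48.2% to 34.9%. The share moved from 59.8% to 43.6% for clone by time, day 6 against day 0, and from 53.8% to 40.7% for clone 66 against clone 48 at day 6.

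With same-numbered RxraWT and RxraSA libraries summed, chosen after seeing the data, genes called for clone by time were 280, 158 and 247 and members called 1 in each comparison, and for clone 66 against clone 48 genes called were 2075, 3000 and 2400 on days 0, 2 and 6, with 2 members called at day 6. With the replicate block within each day, 1 gene was called for RxraSA against RxraWT at day 2, Angptl2 and Angptl4 changed sign at day 0 (0.00962 and -0.00032) and Vegfa at day 2 (0.00203). The replicate block across days gave 0.0059 for Vegfa at day 2 and changed no call of a member. Library size alone gave -0.0141 for Angptl4 at day 0, 0.00477 for Vegfa at day 2 and 0.00365 for Angpt2 at day 2, and no clone term gave 0.00757 for the last. Without the shallowest library (clone 48, RxraSA, day 0, replicate 1), Angptl2 was 0.0278 and Angptl4 -0.0309 at day 0. In clone 66 alone, RxraSA against RxraWT at day 0 was 0.107 for Vegfb, -0.149 for Angpt1, 0.145 for Angpt2 and -0.0816 for Angptl4, at day 2 it was 0.0374 for Vegfa and -0.0483 for Angpt1, and at day 6 it was 0.165 for Vegfb and -0.0593 for Angpt1. In clone 48 alone it was 0.0665 for Angptl2 at day 0, 0.0893 for Angpt2 at day 2, and -0.07 for Vegfd and -0.0266 for Angptl2 at day 6. Angpt1 between days in clone 48 alone was 0.0394 (day 2 against day 0), -0.0291 (day 6 against day 0) and -0.0684 (day 6 against day 2).

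Leaving out replicates in turn, Angpt1 from day 0 to day 2 lay between -0.297 and 0.0102. RxraSA against RxraWT at day 0 lay between -0.152 and 0.0437 for Angpt2, -0.106 and 0.0698 for Angptl2, and -0.0379 and 0.0439 for Angptl4. At day 2 it lay between -0.0447 and 0.01 for Vegfa, -0.184 and 0.0221 for Vegfd, -0.129 and 0.181 for Angpt2, and -0.0625 and 0.00205 for Angptl4. At day 6 it lay between -0.0844 and 0.00375 for Vegfa, -0.0912 and 0.0422 for Vegfb, -0.0239 and 0.0936 for Angpt1, -0.0174 and 0.0783 for Angptl2, and -0.00646 and 0.0732 for Angptl4. Genes called for clone by time ranged from 541 to 1248 (day 2 against day 0, lowest without replicate 2 of clone 48), 317 to 699 (day 6 against day 0, lowest without replicate 2 of clone 48) and 522 to 1391 (day 6 against day 2, lowest without replicate 2 of clone 48). Members called ranged from 1 to 3, 1 to 3 and 2 to 5 in these comparisons, and from 2 to 4 for clone 66 against clone 48 at day 6.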
